A study of Mus musculus with 6 samples.

Results

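The genes described are 10 genes of the cytotoxic granule and of target cell killing: the granzymes Gzma, Gzmb, Gzmc, Gzmk and Gzmm, the pore-forming protein Prf1, the granule-associated genes Nkg7 and Ctsw, the death ligand Fasl and the cytokine Ifng. All 10 were present in the deposited expression table. They were chosen by their known role, with earlier results of these data known, and followed in NK-like cells, CD8 T-like cells, other T-like cells and elsewhere in the liver. The list itself was not set by a difference between genotypes, but because earlier results were known the p-values below are not independent evidence.

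Single-cell RNA sequencing (10x Genomics Chromium, 3′ end capture) had been run on livers of 3 wild-type mice and 3 mice lacking the NAD+-dependent histone deacetylase SIRT7 (SIRT7-/-), all 5 to 6 months old and with no other treatment given in the labels. The knockout was in the whole animal, so a difference in a lymphocyte need not arise in that lymphocyte. In each mouse 3000 hepatocytes and 3000 non-parenchymal cells from a collagenase perfusion had been mixed, so shares of all cells depend on the mixing. The table held 11610 cells, 933 to 1243 per wild-type mouse and 552 to 5609 per SIRT7-/- mouse, with 2511947 to 11069411 unique molecular identifiers (UMIs, 1 per captured RNA molecule) per library.

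Sirt7 itself averaged 0.718, 0.512 and 0.546 UMIs per 10000 (CP10K) over all cells of the wild-type livers, against 0.10, 0.0814 and 0.139 over those lacking SIRT7, so the labels and the targeted gene went together. In lymphocyte-like cells the levels were 0.714, 0.828 and 0.753 against 0.109, 0.105 and 0.0905. SIRT7-/- mouse 3 gave the fewest cells and SIRT7-/- mouse 1 the most. Across libraries 13 cell barcodes occurred in 2 or more of them. A doublet caller marked 46 cells (0.396%), too few for it to have worked, so doublets remained in the data.

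Cytotoxic lymphocytes kill by releasing granules onto a target cell. Perforin opens the target's membrane, granzymes enter through it and cleave proteins there, and the proteoglycan serglycin holds both in the granule until release. Killing can also go through Fas ligand on the lymphocyte and Fas on the target, and interferon gamma acts on hepatocytes and macrophages at a distance. The liver is rich in such cells: it holds circulating-type natural killer (NK) cells, resident type 1 innate lymphoid cells (ILC1), NKT cells and memory CD8 T cells.

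Mouse granzyme genes sit in clusters. In the mouse build GRCm38, Gzma (chr13:113093825-113100981, minus strand, 5 exons) lies 70626 bases from Gzmk (chr13:113171608-113225908, minus strand, 5 exons), and the span of Gzmk overlaps Esm1 on the other strand. Gzmc (chr14:56231441-56234656) and Gzmb (chr14:56258838-56262260), each with 5 exons on the minus strand, are 24181 bases apart at one end of a cluster. Its other granzyme genes, Gzmd, Gzme, Gzmf, Gzmg and Gzmn, were absent from the deposited expression table and could not be analysed. These cluster genes are close relatives of Gzmc, and reads shared between near-identical copies could not be told apart in the deposited values, so Gzmc counts are uncertain to that extent. Gzmm (chr10:79689020-79695261), Prf1 (chr10:61297833-61304680) and Ifng (chr10:118441046-118445892) are on the plus strand of chromosome 10, Fasl (chr1:161780689-161788495) on the minus strand, Nkg7 (chr7:43437073-43438249) on the plus strand, and Ctsw (chr19:5465043-5468507, minus strand) overlaps Fibp on the other strand.

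The 250 bases before the start sites of the 2 neighbouring pairs are shown because the neighbours differed in the cells that carried them (below). Gzmb and Gzmc differed less, both being highest in NK-like cells. The Gzmk window lies inside the Gzmk span given above, before a start site within it. All sequences come from RefSeq on GRCm38.p6, where 9 of the 10 genes matched an entry and Ctsw did not. Each reads 5′ to 3′ on the gene's strand, with capitals marking the core letters bound by Runx factors (TGTGGT or ACCACA) or by T-box factors such as T-bet and Eomes (GTGTGA or TCACAC), families known for their part in the cytotoxic program.
Gzma, chr13:113100982-113101231, minus strand: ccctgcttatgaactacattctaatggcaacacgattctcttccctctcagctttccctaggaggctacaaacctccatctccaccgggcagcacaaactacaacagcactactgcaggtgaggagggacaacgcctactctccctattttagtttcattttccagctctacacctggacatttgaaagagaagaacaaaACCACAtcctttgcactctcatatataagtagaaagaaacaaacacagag
Gzmk, chr13:113180966-113181215, minus strand: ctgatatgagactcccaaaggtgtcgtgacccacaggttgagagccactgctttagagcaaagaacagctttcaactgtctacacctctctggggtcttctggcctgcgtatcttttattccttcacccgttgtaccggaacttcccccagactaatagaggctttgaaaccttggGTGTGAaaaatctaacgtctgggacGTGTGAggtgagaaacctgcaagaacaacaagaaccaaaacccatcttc
Gzmb, chr14:56262335-56262584, minus strand: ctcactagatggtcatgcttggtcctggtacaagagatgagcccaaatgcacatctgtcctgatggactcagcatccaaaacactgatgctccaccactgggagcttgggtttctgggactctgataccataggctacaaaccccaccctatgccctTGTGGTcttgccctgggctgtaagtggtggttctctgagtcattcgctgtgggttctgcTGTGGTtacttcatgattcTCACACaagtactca
Gzmc, chr14:56234658-56234907, minus strand: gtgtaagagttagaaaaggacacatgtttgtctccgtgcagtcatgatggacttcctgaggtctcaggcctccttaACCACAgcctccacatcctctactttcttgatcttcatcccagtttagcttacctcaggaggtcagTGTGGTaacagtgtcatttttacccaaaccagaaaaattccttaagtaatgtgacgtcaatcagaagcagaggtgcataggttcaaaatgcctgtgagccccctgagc
Gzma held 1 Runx match and no T-box match, whereas Gzmk held 2 T-box matches and no Runx match. Gzmb held 2 Runx matches and 1 T-box match, and Gzmc held 2 Runx matches and no T-box match. Of 32851 promoter windows of the same length, 14.0% held the Runx letters and 12.3% the T-box letters, so a match in one window is common and is only a description of its letters.
Classes were built from genes other than the 10 members. The lymphocyte-like cluster held 1978 cells. Its NK-like sub-cluster of 336 cells carried the NK receptor gene Ncr1 in 79.2% of cells and Tyrobp in 87.2%, with Cd3d in 17.9%. The T-like sub-cluster of 1163 cells did not separate CD8 cells by itself, so cells with at least 1 UMI of Cd8a or Cd8b1 were called CD8 T-like (130 cells, Ncr1 in 0.769%) and the remaining 1033 other T-like, where Cd3d was seen in 68.5% and Cd4 in 11.2%. A cycling sub-cluster (275 cells, led by Hist1h2ae, Rrm2 and Top2a) made up part of the rest. The last sub-cluster, 204 cells, was left unnamed, because its leading genes Apol7c, Ccr7, Il12b and Fscn1 are genes of mature dendritic cells, while Cd3d was seen in 59.3% and H2-Ab1 in 87.7% of its cells. It held 4, 4 and 38 cells of the wild-type mice and 68, 88 and 2 of the SIRT7-/- mice, and values over all lymphocyte-like cells are given with and without it. The NK-like name covers ILC1 as well, which share Ncr1.

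The 10 genes were lymphocyte genes in this liver. Lymphocyte-like cells, 17.0% of all cells, held between 72.4% (Fasl) and 86.6% (Gzmk) of each member's UMIs. Without the unnamed sub-cluster they were 15.3% of cells and held 63.2% (Fasl) to 79.1% (Gzmk). NK-like cells, 2.89% of all cells, held 59.3% of Gzmc, 49.5% of Gzma, 39.4% of Prf1 and 32.4% of Gzmb UMIs. Nkg7, a granule membrane protein, was spread more widely, with 21.4% of its UMIs in NK-like, 28.6% in other T-like, 16.7% in cycling and 5.79% in CD8 T-like cells. The differences between classes are descriptions without a test, because the genes were picked with the cells that carry them known.

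**Figure D1:**
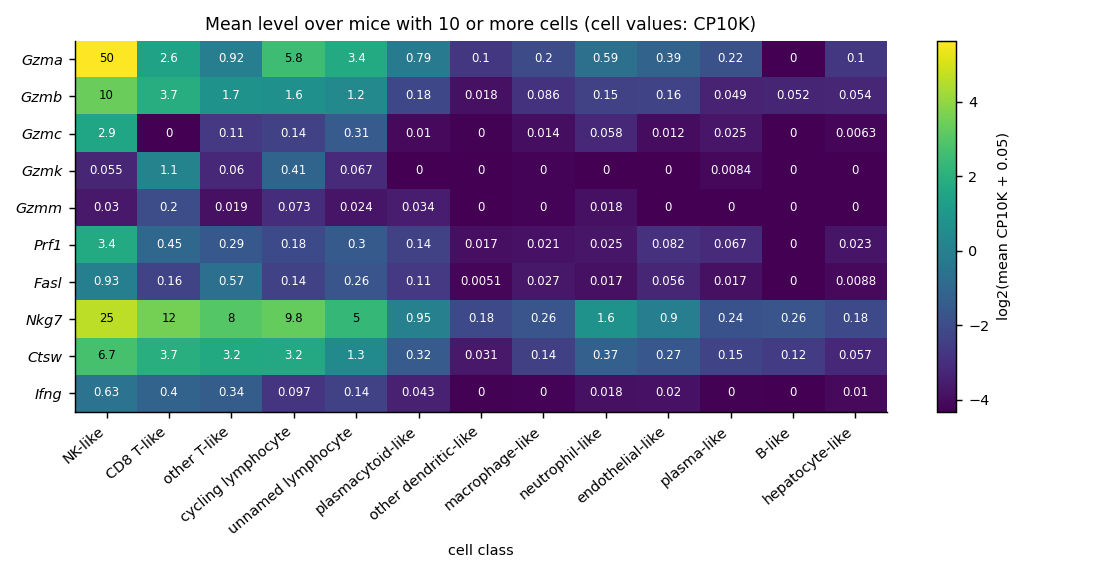
Level of the 10 genes in 13 classes of liver cells, as mean UMIs per 10000 averaged over mice with 10 or more cells of the class. Rows are genes, columns are classes, the number in each cell is the level, and brighter colours are higher levels on a log2 scale. NK-like cells lead for Gzma (49.7), Nkg7 (25.1), Gzmb (10.2), Ctsw (6.66), Prf1 (3.37) and Gzmc (2.86), while Gzmk (1.05) and Gzmm (0.203) are highest in CD8 T-like cells. Levels should be compared along a row, since 3′ counts do not compare genes.

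Among granzymes, Gzma (a tryptase) averaged 49.7 ± 17.2 CP10K (SD, 6 mice) in NK-like cells, 2.63 ± 1.92 (5 mice) in CD8 T-like cells and 0.920 ± 1.72 (6 mice) in other T-like cells. The NK-like range, 15.3 to 59.6, did not meet that of CD8 T-like cells, 0 to 5.02, whereas the CD8 T-like and other T-like ranges overlapped. Gzmb, the granzyme that cleaves caspases, followed the same order with 10.2 ± 2.33, 3.68 ± 4.07 and 1.69 ± 1.02, but here the CD8 T-like mice ran from 1.64 to 11.0 and so overlapped NK-like cells. Gzmk, a granzyme of memory CD8 T cells, went the other way, with 1.05 ± 1.13 in CD8 T-like cells, 0.0547 in NK-like cells and 0.0597 in other T-like cells. Its CD8 T-like mice ran from 0.204 to 2.91 and its NK-like mice from 0 to 0.292, so these ranges overlapped. Gzmm was scarce everywhere, with 31 UMIs in 30 cells of the whole table.

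Prf1 averaged 3.37 ± 1.49 CP10K in NK-like cells against 0.447 ± 0.281 in CD8 T-like and 0.286 ± 0.133 in other T-like cells. The ranges overlapped between both pairs of neighbours, since the lowest NK-like mouse (0.754) was just under the highest CD8 T-like mouse (0.757). Nkg7 stepped down from 25.1 ± 5.43 in NK-like cells to 11.8 ± 4.19 in CD8 T-like and 7.99 ± 1.55 in other T-like cells. The CD8 T-like and other T-like mice overlapped, and the CD8 T-like maximum of 18.0 just missed the NK-like minimum of 18.1. The cathepsin Ctsw ran 6.66 ± 1.68, 3.72 ± 0.600 and 3.24 ± 0.886, so its CD8 T-like and other T-like levels overlapped. Fasl (0.930 ± 0.346, 0.156 ± 0.234 and 0.568 ± 0.214) and Ifng (0.634 ± 0.245, 0.398 ± 0.241 and 0.336 ± 0.351) were low in all 3 classes and overlapped between neighbours in the order of their levels.

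Cycling lymphocytes were a further place for Gzma, at 5.78 ± 2.01 CP10K over the 3 mice with 10 or more such cells, and held 37.3% of the 67 Gzmk UMIs of the table. Of their 519 Gzma UMIs, 90.6% sat in 28 cells with 5 or more each. An NK marker, from a list under which 93.8% of NK-like cells had one, was seen in 25 of those cells. A gene of the T cell receptor complex was seen in 19.

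In hepatocyte-like cells, which should lack these genes, a UMI was found in 0.543% of 2944 cells for Gzma, 0.543% for Gzmb, 0.0679% for Gzmc and 1.56% for Nkg7 (median 1515.5 UMIs per cell). In NK-like cells (median 1172 UMIs) the shares were 37.8%, 46.1%, 12.8% and 85.4%. Ifng was seen in 6.85% of NK-like and 0.0679% of hepatocyte-like cells. Gzmk and Gzmm were nearly absent from NK-like cells, at 0.595% and 1.49%, so their levels there rest on 2 and 5 UMIs.

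Genotype was compared by mouse. The mean level over a mouse's cells of a class was 1 value, and limma was fitted to log2(mean CP10K + 0.05) over all genes with a mean of at least 0.05. A gene was called at a Benjamini-Hochberg adjusted p under 0.05, two-sided, over all genes tested in the class. Beside it stands the exact permutation test of the mouse means, which cannot go below 0.1 with 3 mice against 3 and 0.2 with 3 against 2, so it cannot pass by itself. The share of all genes whose groups do not overlap is not given, so a member without overlap is a description only. NK-like, CD8 T-like and neutrophil-like cells were few, so mice with 10 or more cells entered there and with 20 or more elsewhere. SIRT7-/- mouse 3 had 4 CD8 T-like and 11 other T-like cells and was left out of those fits.

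**Figure D2:**
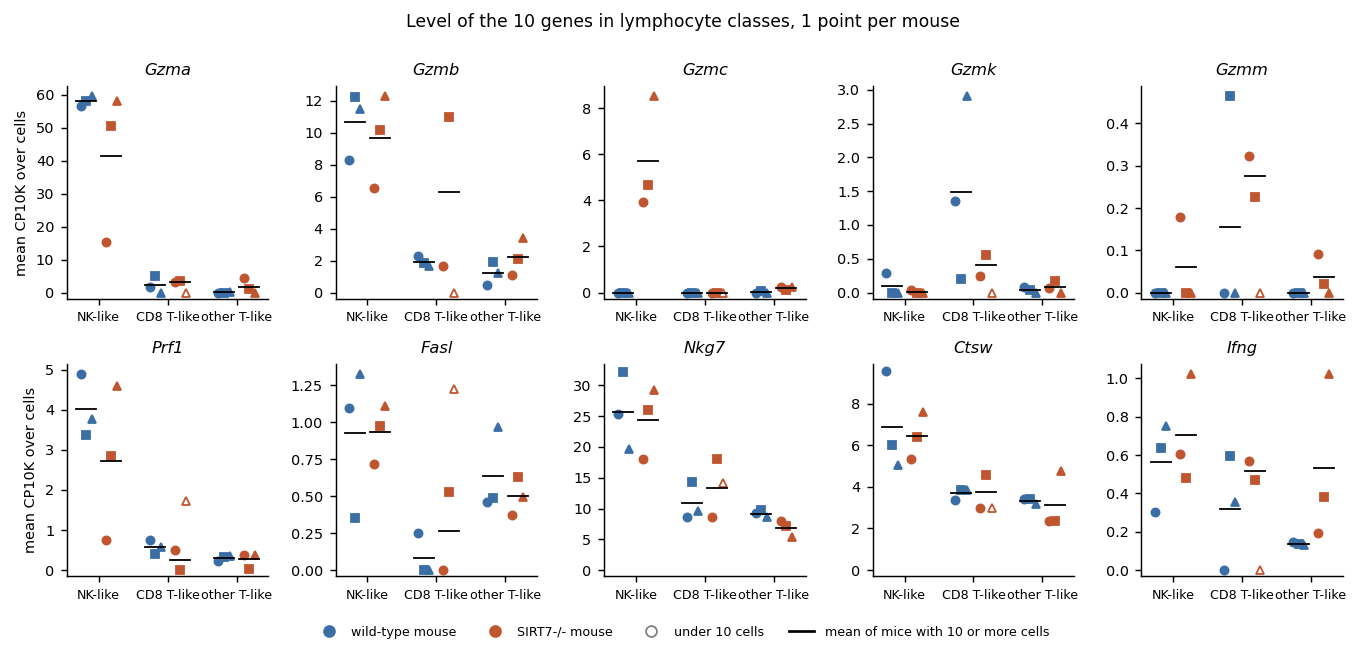
Mean UMIs per 10000 of each gene in NK-like, CD8 T-like and other T-like cells, 1 point per mouse (circle, square and triangle for replicate 1, 2 and 3), wild-type and SIRT7-/- in different colours. Open symbols are mice with under 10 cells of the class and lines are means of the mice with 10 or more. Gzmc in NK-like cells is at 0 in all 3 wild-type mice and at 3.95, 4.68 and 8.53 in the SIRT7-/- mice, while the other genes overlap between genotypes in NK-like cells.

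In NK-like cells of SIRT7-/- livers Gzmc was present, and in those of wild-type livers it was not seen. Gzmc, a granzyme of activated killer lymphocytes, had 0 UMIs in the 14, 17 and 20 NK-like cells of the 3 wild-type mice. In SIRT7-/- mice 1, 2 and 3 it had 75 UMIs in 179 cells, 77 in 95 and 20 in 11, for mean levels of 3.95, 4.68 and 8.53 CP10K. All 3 SIRT7-/- mice were above all 3 wild-type mice. The cells that carried it were 26, 15 and 2.

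The limma difference for Gzmc was 6.77 on the log2(CP10K + 0.05) scale (SE 0.92, adjusted p = 7.1e-10, 3 mice against 3; exact permutation p = 0.1, the smallest possible). Since the wild-type side is at 0, the size of this difference depends on the added constant. All 3 wild-type values equal that constant and show no spread, and Gzmc passed the filter through the SIRT7-/- mice alone. The limma p-value therefore does not measure how wild-type mice vary. A ratio of summed counts is set beside the difference. Summed over each group, the 3 counts that 0 allows would be 0.268 CP10K among 112034 wild-type UMIs, against 4.39 measured in SIRT7-/- cells. The ratio is 16.4-fold (counting error only, with each UMI taken as independent). Since 1 cell held up to 37 Gzmc UMIs, a bound that allowed for shared cells would be lower. Leaving out SIRT7-/- mouse 3, whose 11 cells gave the highest level, brought the adjusted p to 0.0498 with a log2 difference of 6.44. Taking only mice with 20 or more cells, which leaves 1 wild-type mouse, gave an adjusted p of 0.11, and cells picked by marker UMIs in place of clusters gave 5.24 with an adjusted p of 0.19.

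By cell, Gzmc was found in 43 of 285 SIRT7-/- NK-like cells (15.1%, exact 95% interval 11.1 to 19.8%) and in 0 of 51 wild-type ones, which allows a share of up to 5.88%. These intervals cover counting error only. The wild-type cells were the deeper ones, with a median of 1980 UMIs against 1120. With every cell thinned to 1000 UMIs, which left out 9 wild-type and 108 SIRT7-/- cells, the shares were 0 of 42 and 13.0%. In hepatocyte-like cells Gzmc was seen in 0 of 1414 wild-type cells and in 0.131% of those lacking SIRT7.

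None of the other 8 members tested in NK-like cells passed, so 1 of 9 members was called against 0.518% of all 9459 genes tested. The members' median log2 difference was -0.074, beside 0.11 over all genes, and 3 of the 9 were above 0. Gzmm was under the filter, with 5 UMIs in NK-like cells, all of them in SIRT7-/- mouse 1.

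Gzma was 56.6, 58.2 and 59.6 CP10K in wild-type livers and 15.3, 50.4 and 58.3 in SIRT7-/- livers. SIRT7-/- mouse 1 stood apart with the low level and the groups overlapped. The difference was -0.71 (SE 0.60, limma adjusted p = 0.90; exact permutation p = 0.3). Prf1 had the same mouse at the bottom, with 4.90, 3.36 and 3.76 against 0.754, 2.84 and 4.60, and a difference of -0.86 (SE 0.43, limma p = 0.044 unadjusted and 0.78 adjusted; exact permutation p = 0.4).

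Gzmb was 8.28, 12.2 and 11.5 in the wild type and 6.55, 10.2 and 12.3 without SIRT7, a difference of -0.17 (SE 0.29, limma adjusted p = 0.98). Nkg7 ran 25.4, 32.2 and 19.6 against 18.1, 26.0 and 29.3, a difference of -0.07 (SE 0.22, adjusted p = 0.99 by limma). Both groups overlapped for these genes. Ctsw, Fasl and Ifng also overlapped, with differences of -0.05, 0.17 and 0.32 (SE 0.33, 0.66 and 0.79) and adjusted p by limma of 0.99, 0.99 and 0.99.

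The NK-like class mixes NK cells and ILC1, so its cells were split, after their values were seen, by surface and lineage markers. Cells with a UMI of the ILC1 markers Itga1, Cd200r1 or Cxcr6 and none of the NK markers (Eomes, Itga2, Klra4, Klra8, Klra9, S1pr5, Cma1) numbered 123, the converse 72, 23 had both and 118 neither. ILC1-marker cells made up 7.14%, 47.1% and 15.0% of the NK-like cells of the wild-type mice, against 39.1%, 40% and 27.3% without SIRT7 (exact permutation p = 0.4). NK-marker cells made up 57.1%, 41.2% and 35% against 13.4%, 23.2% and 36.4% (exact permutation p = 0.2). The shares overlapped between genotypes.

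The granule genes fell into 2 patterns over that split. Only SIRT7-/- mice 1 and 2 had 20 or more cells of both kinds. Gzma was 4.97 CP10K in ILC1-marker cells and 56.4 in NK-marker cells of mouse 1, and 30.0 and 107 in mouse 2. Prf1 was likewise lower in ILC1-marker cells, 0.255 against 1.78 and 0.284 against 6.60, as was Nkg7, 16.2 against 27.0 and 23.6 against 38.1. Gzmc and Ctsw went the other way in both mice, Gzmc with 5.48 against 0.917 and 7.67 against 0, and Ctsw with 6.67 against 3.17 and 8.59 against 4.44. Gzmb was 6.31 against 5.44 in mouse 1 and 14.6 against 4.85 in mouse 2, so the mice did not show 1 size of difference. With 2 mice no test was made.

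By genotype, Gzmb in NK-marker cells was 11.9, 10.5 and 16 CP10K in the wild type (8, 7 and 7 cells) and 5.44, 4.85 and 5.21 without SIRT7 (24, 22 and 4 cells), so all 3 SIRT7-/- mice were lower. In ILC1-marker cells it was 10.9, 15.7 and 19.6 (1, 8 and 3 cells) against 6.31, 14.6 and 25.3 (70, 38 and 3 cells), and the groups overlapped. Over the 10 members, 1 (Gzmb) did not overlap between genotypes in NK-marker cells and 1 (Gzmc, higher without SIRT7) in ILC1-marker cells. The exact permutation p of such a separation cannot go below 0.1 with 3 mice against 3. The share of all genes that separated was not counted, so 1 of 10 members is not read as a result. Most mice had under 10 cells of a kind, and these values carry no test.

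**Figure D3:**
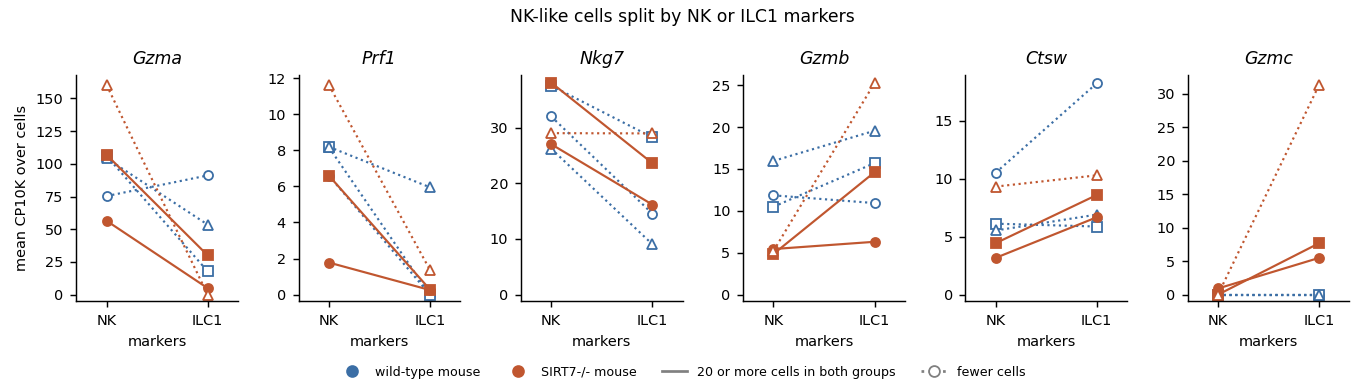
Mean UMIs per 10000 of Gzma, Prf1, Nkg7, Gzmb, Ctsw and Gzmc in NK-like cells with NK markers and with ILC1 markers, 1 point per mouse, both kinds of a mouse joined by a line (solid where both had 20 or more cells, dotted with open symbols where fewer). In SIRT7-/- mice 1 and 2 Gzma, Prf1 and Nkg7 are lower in ILC1-marker cells (Gzma 4.97 against 56.4 and 30.0 against 107), whereas Gzmc and Ctsw are higher there.

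Of the 43 cells with Gzmc, 29 were ILC1-marker cells. They were 29 of 111 SIRT7-/- cells of that kind (26.1%, exact 95% interval 18.2 to 35.3%), compared with 1 of 50 with NK markers (2.0%). The wild-type mice had 12 ILC1-marker cells, 0 of them with Gzmc, and that count allows up to 25.0%. The exact 95% interval of the wild-type share reaches 26.5%, inside that of the SIRT7-/- cells. With 12 wild-type cells, a genotype difference in Gzmc as a share of ILC1-marker cells could thus not be settled. In summed UMIs the ILC1-marker cells of SIRT7-/- mice had 7.46 CP10K, at least 7.23-fold above the 3-count limit of the wild-type cells, but 1 cell can hold many UMIs (up to 37 here) and the cells are not replicates. How far the makeup of the NK-like class carries the Gzmc difference was not tested.

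Within NK-like cells, the 43 cells with Gzmc carried Gzmb in 76.7% of cases, against 41.6% of the 293 cells without, and Ctsw in 74.4% against 48.5%. Gzma was found in 27.9% against 39.2%. Depth was alike in both sets, with medians of 1159 and 1175 UMIs. In SIRT7-/- mouse 1 alone Gzmb was in 69.2% of the Gzmc cells and 33.3% of the others.

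**Figure D4:**
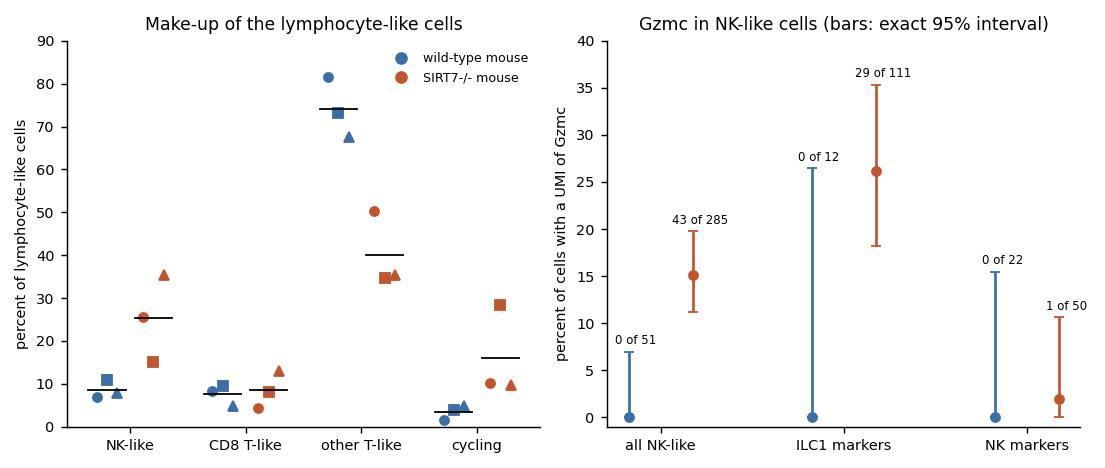
Left, share of lymphocyte-like cells in each subclass, in percent, 1 point per mouse with a line at the mean. Right, percent of NK-like cells with a Gzmc UMI by genotype, for all NK-like cells, those with ILC1 markers and those with NK markers, with exact 95% intervals over cells. NK-like cells are 6.83 to 10.9% of lymphocyte-like cells in wild-type mice, below the 15.0 to 35.5% without SIRT7, and the interval of the 12 wild-type ILC1-marker cells reaches into that of the SIRT7-/- cells.

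The mix of lymphocytes differed too, which moves any level averaged over all of them. NK-like cells were 6.83%, 10.9% and 7.94% of lymphocyte-like cells in wild-type livers, against 25.5%, 15.0% and 35.5% in SIRT7-/- livers, without overlap (exact permutation p = 0.1, the smallest possible). Other T-like cells were 81.5%, 73.1% and 67.5% against 50.2%, 34.6% and 35.5%, and cycling lymphocytes 1.46%, 3.85% and 4.76% against 10.1%, 28.4% and 9.68%, also without overlap and with the same p. Shares of the same whole depend on each other, so these are not separate results. With the unnamed sub-cluster left out the NK-like shares were 6.97%, 11.2% and 9.35% against 28.3%, 17.4% and 37.9%. Of all cells, NK-like cells were 1.13%, 1.82% and 1.83% against 3.19%, 4.36% and 1.99% (exact permutation p = 0.1). As a share of cells that were not hepatocyte-like, however, they overlapped, with 3.15%, 4.07% and 2.01% against 3.81%, 5.01% and 5.07% (exact permutation p = 0.2). CD8 T-like cells were 1.37%, 1.61% and 1.1% of all cells against 0.553%, 2.34% and 0.725%, which overlapped.

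In CD8 T-like cells no member was called. The class had 17, 15 and 12 cells in the wild-type mice and 31 and 51 in the SIRT7-/- mice that entered. Of 9 members tested 0 passed limma's adjusted threshold and 1 (Gzmb) had an unadjusted p under 0.05, and 8 of 9340 genes (0.0857%) were called in all. The members' median difference was 0.90 against 0.13 over all genes, with 6 of 9 above 0. Gzmc had no UMI in any of the 130 cells, which allows a share of up to 2.31%. That depended on how the class was drawn. Among 224 lymphocyte-like cells picked by marker UMIs alone (a Cd8a or Cd8b1 UMI with one of Cd3d, Cd3e, Cd3g or Trac), Gzmc had 9 UMIs in 5 cells, all from SIRT7-/- mice 1 and 2, which is 2.89% of 173 SIRT7-/- cells and 0 of 51 wild-type ones, a count that allows up to 5.88%.

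Gzmb was the member with an unadjusted p under 0.05 in this class, with 2.28, 1.84 and 1.69 CP10K in wild-type livers and 1.64 and 11.0 in SIRT7-/- mice 1 and 2. SIRT7-/- mouse 1 was thus just below and mouse 2 well above all the wild-type mice. The difference of 1.13 (SE 0.56, limma p = 0.043 unadjusted and 0.94 adjusted; exact permutation p = 0.8) rests on mouse 2, and without it the value was -0.22. Gzmk was 1.35, 0.204 and 2.91 against 0.251 and 0.560, a difference of -1.25 (SE 0.98, limma adjusted p = 0.94), with overlapping mice.

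Nkg7 was 8.60, 14.2 and 9.67 against 8.55 and 18.0 in CD8 T-like cells, the SIRT7-/- mice standing on either side of the wild-type mice. Gzma was 1.54, 5.02 and 0 against 3.10 and 3.48, and here the wild-type mice stood on either side. Ctsw kept to a narrow range in this class, from 2.97 to 4.56 over the 5 mice. Whether the genotype difference was itself different in NK-like and CD8 T-like cells was tested within mice with 10 or more cells of both (3 against 2). Of 8173 genes 0 passed (0%) by limma, with 273 at an unadjusted p under 0.05, and of the 8 members tested none reached that. Gzmc was not among those 8, being at 0 in the clustered CD8 T-like cells.

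In other T-like cells, Gzma was higher in SIRT7-/- mice 1 and 2, and few cells held most of it. Gzma was 0, 0 and 0.145 CP10K in wild-type livers (0, 0 and 2 UMIs in 167, 114 and 170 cells) and 4.33 and 1.05 in SIRT7-/- mice 1 and 2 (157 and 47 UMIs in 352 and 219 cells). SIRT7-/- mouse 3, with 11 cells, had none. The difference over the first 5 mice was 4.80 (SE 0.65, limma adjusted p = 0.0017), and with mouse 3 included it was 2.98 (adjusted p = 0.93 by limma), with overlapping groups (exact permutation p = 0.4). Without wild-type mouse 1 the adjusted p was 0.054. The wild-type mean, 0.0482 CP10K, is under the filter of 0.05, so Gzma was tested here through the SIRT7-/- mice alone. With wild-type mice 1 and 2 at 0, the size depends on the added constant, and limma's p-value measures little of how wild-type mice vary.

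Of the 206 Gzma UMIs in this class, 91.3% sat in 17 cells with 5 or more each, 14 of them from SIRT7-/- mouse 1 and 3 from mouse 2. Of those cells, 16 had a UMI of an NK marker, 13 had Ncr1 and 3 had a UMI of Cd3d, Cd3e, Cd3g or Trac. The NK markers counted here are a wider list than that used to split the NK-like cells, and 93.8% of NK-like cells had one. By mouse, an NK marker was seen in 14 of 14 such cells of mouse 1 and in 2 of 3 of mouse 2, and a receptor complex gene in 1 and 2. Over the whole class an NK marker was seen in 27.8% of cells, with 38.9%, 36.0% and 30.0% in wild-type livers against 23.0%, 20.1% and 45.5% in SIRT7-/- livers. In cells of the class without an NK marker UMI, Gzma was 0.113 CP10K in SIRT7-/- mouse 1 (3 of its 157 UMIs) and 0.531 in mouse 2 (19 of 47), and 0, 0 and 0.102 in wild-type livers. The 12 NK markers used to name classes are a further list, which also holds Tyrobp and Fcer1g. They summed to 2.78, 2.50 and 5.62 CP10K in the wild type and to 8.92, 3.92 and 5.38 without SIRT7. In SIRT7-/- mouse 1 all 12 were above 0, in mouse 2 11, and 4 to 7 in the rest, and Ncr1 and Eomes were at 0 in wild-type mice 1 and 2 and in SIRT7-/- mouse 3.

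That was the 1 call among 9 members tested in other T-like cells, where 0.194% of 9775 genes were called. The members' median difference was 0.51 against -0.034 over all genes, with 5 of 9 above 0. Ifng was 0.147, 0.137 and 0.132 in wild-type livers and 0.194, 0.381 and 1.03 in SIRT7-/- livers, so all 3 were higher, mouse 3 from 11 cells. Its difference over 5 mice was 0.78 (SE 0.49, limma adjusted p = 1.0), which did not pass, and the exact permutation p over the 6 mice was 0.1. These levels are low, with 23 UMIs in 582 SIRT7-/- cells and 13 in 451 wild-type cells.

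Nkg7 was lower in other T-like cells of all 3 SIRT7-/- mice, at 7.93, 7.09 and 5.44 CP10K against 9.22, 9.69 and 8.54. The groups did not overlap (exact permutation p = 0.1), yet the limma difference of -0.28 (SE 0.21, adjusted p = 1.0) did not pass. Without the share of all genes that separate in this class, such a separation is not read as a result. Ctsw was 3.40, 3.44 and 3.18 in the wild type and 2.35, 2.34 and 4.74 without SIRT7, and mouse 3 made the groups overlap. Gzmb, at 0.487, 1.89 and 1.21 against 1.07, 2.10 and 3.40, overlapped as well. Gzmc was 0, 0.0641 and 0 against 0.222, 0.0952 and 0.255, without overlap, from 2 UMIs in 1 wild-type cell and 14 UMIs in 10 SIRT7-/- cells. Its difference of 1.59 (SE 0.65, limma adjusted p = 0.87) did not pass.

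**Figure D5:**
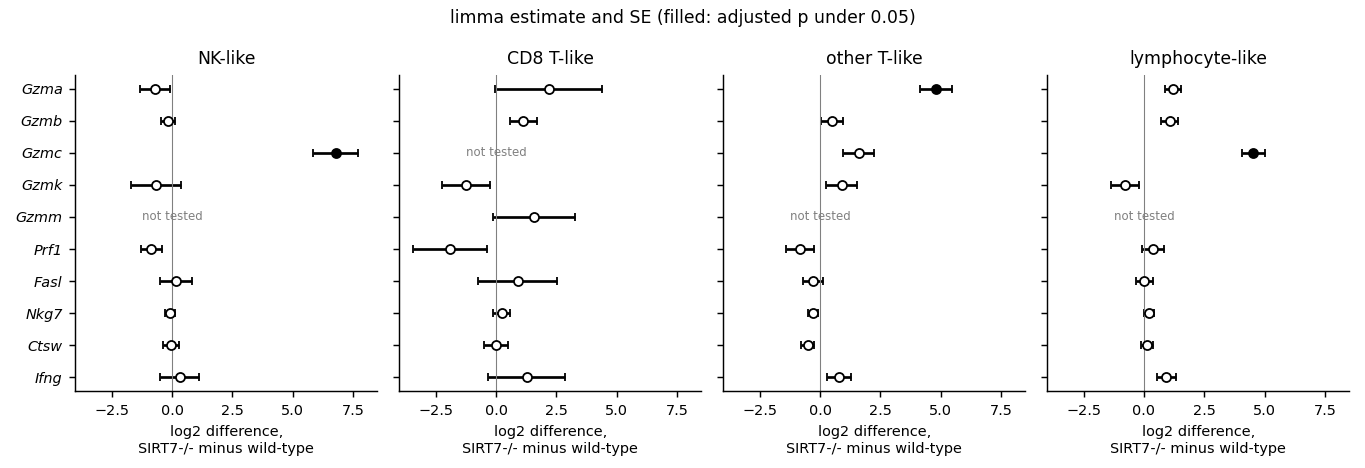
Difference SIRT7-/- minus wild-type for each gene tested in NK-like, CD8 T-like, other T-like and all lymphocyte-like cells, on the log2(mean UMIs per 10000 + 0.05) scale with its standard error from limma. Filled points have an adjusted p under 0.05 over all genes of the class. Gzmc in NK-like (6.77) and lymphocyte-like cells (4.53) and Gzma in other T-like cells (4.80) are filled, and the remaining points are open.

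Over all lymphocyte-like cells together, 205, 156 and 252 in the wild-type mice and 701, 633 and 31 in the SIRT7-/- mice, Gzmc was again the 1 member called of 9, where 0.12% of 10004 genes were. It was 0.00983, 0.0468 and 0 CP10K against 1.18, 0.845 and 3.18 without SIRT7, a difference of 4.53 (SE 0.48, limma adjusted p = 0.00043). The wild-type mean, 0.0189, is under the filter of 0.05, so Gzmc was again tested through the SIRT7-/- mice alone. All 3 wild-type values are under the added constant, so the size of the difference depends on it. The NK-like share of these cells differed between genotypes too, as given above. Leaving out the unnamed sub-cluster gave 4.60 (adjusted p = 0.00029 by limma) and again 1 member called. Weighting by voom on summed UMIs gave an adjusted p of 0.069.

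Gzma over the same cells was 3.99, 6.83 and 5.00 in the wild type and 7.46, 10.8 and 20.7 without SIRT7, without overlap. Its difference of 1.19 (SE 0.34, limma adjusted p = 0.43) did not pass. Ifng, with 0.180, 0.243 and 0.179 against 0.297, 0.337 and 0.727, did not overlap either, and neither did it pass (0.92, SE 0.40, adjusted p = 0.68 by limma). Gzmb at 1.15, 2.91 and 1.96 against 2.50, 4.25 and 5.92 overlapped (1.06, SE 0.36, limma adjusted p = 0.52). Without SIRT7-/- mouse 1, Gzma (adjusted p = 0.014) and Gzmb (adjusted p = 0.047) also passed limma's test, so that mouse decided those calls. With the unnamed sub-cluster left out, limma's adjusted p was 0.44 for Gzma, 0.49 for Gzmb and 0.66 for Ifng. Within NK-like cells Gzma and Gzmb had differences under 0 and Ifng one of 0.32. The part of the NK-like share in these values was not tested.

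Over all cells of a mouse no member was called of 8 tested, and 2 of 10961 genes were (0.0182%). Gzmc was 0.00162, 0.00783 and 0 CP10K in the wild type and 0.180, 0.271 and 0.179 without SIRT7, a difference of 2.27 (SE 0.26, limma adjusted p = 0.10). The groups did not overlap. At this level, as in bulk RNA, more cells of a type and more RNA per cell cannot be told apart.

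Outside lymphocytes, 1 member was called in 1 class. Gzma in endothelial-like cells was 0, 0 and 0.123 CP10K in wild-type livers and 0.792 and 1.06 in the SIRT7-/- mice with 20 or more cells (3.67, SE 0.82, limma adjusted p = 0.024; 1 of 6 members tested, beside 0.282% of 10647 genes). The SIRT7-/- levels were 20 UMIs in 4 cells and 11 UMIs in 1 cell, and leaving out SIRT7-/- mouse 2 or wild-type mouse 1 gave an adjusted p of 0.35 or 0.12. All 4 endothelial-like cells with 5 or more Gzma UMIs carried Ncr1. No member was called of 4 in macrophage-like cells (0.201% of all genes called), 4 in hepatocyte-like (0.0913%), 2 in other dendritic-like (0.0311%), 5 in plasma-like (0.0652%) and 5 in neutrophil-like cells (0.0335%). In B-like, plasmacytoid-like and stellate-like cells too few mice had enough cells for a fit.

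Most Gzma outside the lymphocyte cluster was also in few cells. Of its 716 UMIs there, 81.6% were in 55 of 9632 cells with 5 or more each. Of these cells 46 had an NK marker UMI by the wider list, 30 had Ncr1 and 9 had a T cell receptor complex gene. Of these cells 28 were macrophage-like, and 38 and 16 came from SIRT7-/- mice 1 and 2. Doublets were not removed, and their part in these counts was not tested.

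The genes that serve the granule were followed from lists chosen by role. None of the granule content, transport, granzyme inhibitor, transcription factor or death receptor and interferon genes was called in NK-like, CD8 T-like or other T-like cells. In NK-like cells 10 content genes had a median difference of 0.23 with 5 above 0, and 15 transport genes a median of -0.31 with 5 above 0. The 11 transcription factors had a median of 0.10 with 6 above 0, the 15 death receptor and interferon genes -0.085 with 7 above 0, and the 4 granzyme inhibitors 0.81 with all 4 above 0. The median over all genes was 0.11.

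The most abundant genes of these lists were read in NK-like cells. Srgn, which encodes serglycin, was 5.38, 6.55 and 4.52 CP10K in wild-type and 5.29, 4.60 and 4.36 in SIRT7-/- NK-like cells. Lamp1, a granule membrane protein that reaches the surface on release, was 0.570, 1.44 and 0.325 against 1.6, 1.04 and 0.611. Coro1a, an actin regulator of granule exit, was 9.74, 10.0 and 8.63 against 8.39, 10.1 and 13.4, and Vamp8, a vesicle fusion protein, 1.32, 2.2 and 3.05 against 2.64, 1.88 and 2.86. The groups overlapped for all 4.

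Serpinb9, the inhibitor that protects killer cells from their own granzyme B, was 1.88, 3.61 and 2.28 in wild-type and 1.1, 3.24 and 5.23 in SIRT7-/- NK-like cells and overlapped. Its relative Serpinb6b was 1.25, 0.911 and 0.390 against 1.85, 1.33 and 2.96. The SIRT7-/- mice were all higher, but the difference of 1.28 (SE 0.57, limma adjusted p = 0.73) did not pass. Id2, needed for NK and ILC1 development, and Ets1 differed by 0.10 (SE 0.27) and -0.48 (SE 0.43), and the interferon gamma side genes Jak1 and Ifngr1 by -0.83 (SE 0.41) and 1.53 (SE 2.06), none past the threshold by limma.

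The 1 list gene that was called anywhere was Cd63, a membrane protein of lysosomes and secretory granules, and it was called in macrophage-like cells. It was 0.0388, 0.147 and 0.298 CP10K in wild-type and 1.62, 1.17 and 1.19 in SIRT7-/- macrophage-like cells, a rise of 2.90 (SE 0.43, limma adjusted p = 0.025) without overlap. It was 1 of 9 genes of its list tested there, beside 0.201% of all 9946 genes. All the lists were tested in every fitted class, so 1 call is not read as a result about them.

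Over 49 combinations of class and mouse with 20 or more cells (13 classes), the genes whose log2 level ran most like a member's are given as a description, among 3008 genes, with Pearson's r in brackets. Libraries and depth are shared between points. Nkg7 ran closest to Trbc1 (0.97), Il2rb (0.97) and Ctsw (0.97), and Ctsw to Il2rb (0.97), Nkg7 (0.97) and Lck (0.97), genes found in T cells or in T and NK cells alike. Gzma ran closest to the NK receptor genes Ncr1 (0.89) and Klre1 (0.82), then Gzmb (0.81), and Gzmc to Ncr1 (0.74), Klrb1f (0.69) and Klre1 (0.68). Gzmb ran closest to the chemokine gene Xcl1 (0.94), Cd160 (0.93) and Nkg7 (0.93).

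Single NK-like cells rarely held many of the granzymes at once at this depth. Of 336 cells, 31.5% had no UMI of any of the 5 granzymes, 41.7% had 1 of them, 23.2% had 2 and 3.57% had 3 or more. In CD8 T-like cells 53.1% had none and 3.08% had 3 or more, and in other T-like cells 82.9% had none and 0.194% had 3 or more. In hepatocyte-like cells 98.9% had none.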

How the data were processed

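Single cells of 3 wild-type and 3 SIRT7-/- livers had been sequenced and aligned to mouse mm10 with Cell Ranger 6.0.0, per the labels and the study's methods. The values deposited by the authors are the natural log of 1 plus the UMIs of a gene scaled to 10000 per cell, so each level is relative to the cell's other RNA. UMIs were recovered from each cell's smallest step, and all 12961041 values above 0 came out whole within a tolerance of 0.02. No cell in the table had under 500 genes. The authors' own cell types were not used here.

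Cells were clustered with scanpy 1.11.5 and leidenalg 0.10.2 on 1000 variable genes without the 10 members (50 components, 3 neighbours in each mouse, Leiden resolution 0.5 for clusters and sub-clusters, best of 10 seeds). The resolution was set with the clusters' markers in view. Classes were named from listed markers, so they may differ from the study's.

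Mouse means in CP10K were tested with limma 3.58.1 (R 4.3.3) on log2(mean + 0.05) with genotype as the term. P-values were two-sided and adjusted by Benjamini-Hochberg across every gene of the class with a mean of at least 0.05. Cells of 1 mouse are not replicates, so no model over single cells was used. The plan had been mice with 20 or more cells, which left 1, 0 and 1 wild-type mice for NK-like, CD8 T-like and neutrophil-like cells, and 10 was taken there after the cell counts were seen. Nothing in the labels says that mice with the same number share a litter or day. Their deviations correlated above 0.1 in all 3 pairs only in hepatocyte-like cells (0.114, 0.226 and 0.139). CD8 T-like and other T-like cells lacked pair 3. Among lymphocyte classes the highest value was 0.347, for pair 1 of other T-like cells, with 0.085 for pair 2. The fits carry no replicate block, which was tried as an alternative. Exact intervals are Clopper-Pearson at 95% and cover counting error only, and a count of 0 was given the limit of 3 counts. The scripts were tested on simulated data.

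Members and gene lists were chosen with earlier results of these data known. Named genes were the 10 members in every class, genes of the granule lists past the threshold, the 2 genes of each list with the highest mean in lymphocyte-like cells, and, for the 5 members with the most UMIs, the 3 genes with the highest Pearson correlation. The alternatives tried were the added constant, the filter, summed UMIs, voom weights, the class definition, the cell minimum, doublets, a replicate block and leaving out each mouse.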

Additional observations from a re-analysis of the deposited data

How the results depend on the processing

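The 3 calls in lymphocytes were for Gzmc in NK-like cells, Gzma in other T-like cells and Gzmc over all lymphocyte-like cells. In each of them the wild-type mean was under the filter of 0.05 CP10K, so the gene was tested through the SIRT7-/- mice. The calls kept their direction under every alternative run, and passed limma's threshold under 17 of 19, 13 of 18 and 18 of 19 alternatives. In NK-like cells 0 members passed with cells gated by markers or with mice of 20 or more cells, which leaves fewer mice, and 2 passed with the mean of the deposited ln values (Gzma too, adjusted p = 0.041). In other T-like cells 0 passed with an added constant of 0.01 (Gzma adjusted p = 0.078), with clusters built with the member genes (0.057), with gated cells (0.23) and with mice of 10 or more cells, and leaving out 1 mouse gave 0 (without wild-type mouse 1) to 1. Over lymphocyte-like cells 0 passed with voom weights, and leaving out 1 mouse gave 1 to 3. In endothelial-like cells 0 passed with the constant of 0.01, with genes under 0.2 CP10K left out, with summed UMIs and with ln means, and leaving out 1 mouse gave 0 (without wild-type mouse 1 or SIRT7-/- mouse 2) to 1. In plasma-like cells 1 passed with no filter (Nkg7, adjusted p = 0.013), and leaving out 1 mouse gave 0 to 2, the 2 being Nkg7 (3.0e-09) and Gzmb (0.040) without wild-type mouse 3. The causes were not tested. In CD8 T-like, hepatocyte-like, macrophage-like, neutrophil-like and other dendritic-like cells and over all cells no alternative called a member.

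With the replicate block, which pairs mice by number alone, 2 members passed in NK-like cells (Gzma too, adjusted p = 0.037) and 2 in endothelial-like cells (Nkg7 too, 8.0e-05), and no other count of members changed. The block could not be fitted in plasma-like cells. Same-numbered mice correlated by 0.0580, 0.0320 and -0.03 in NK-like and 0.238, 0.111 and -0.0660 in lymphocyte-like cells.

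Gzmb in CD8 T-like cells ran from -0.222 (reversed, without SIRT7-/- mouse 2) to 2.48 on leaving out 1 mouse. The difference in the CD8 T-like share of all cells, -0.151 percentage points SIRT7-/- minus wild-type, ran from -0.719 to 0.175 and turned to 0.175 without SIRT7-/- mouse 1 and 0.0892 without mouse 3. Thinning NK-like cells to 500 UMIs gave shares with a UMI, wild-type and SIRT7-/-, of 27.5% and 27.0% for Gzmb, 11.8% and 5.61% for Prf1 and 60.8% and 62.1% for Nkg7, and 10.9% for Gzmc in SIRT7-/- cells. At 1000 UMIs Nkg7 had 81.0% and 78.0%.

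Counts of genes called moved more than those of members. Over the alternatives they ran from 0 to 72 (reported: 49) in NK-like, 0 to 639 (reported: 8) in CD8 T-like, 5 to 95 (reported: 19) in other T-like, 4 to 141 (reported: 12) in lymphocyte-like, 1 to 137 (reported: 20) in macrophage-like, 0 to 32 (reported: 9) in hepatocyte-like, 0 to 124 (reported: 3) in other dendritic-like, 3 to 283 (reported: 30) in endothelial-like, 1 to 946 (reported: 5) in plasma-like, 0 to 132 (reported: 3) in neutrophil-like and 0 to 6 (reported: 2) over all cells. The 10-cell minimum, the marker splits, the fit without the unnamed sub-cluster and the Leiden partition of lowest quality among 10 seeds were chosen after seeing the data. That partition kept the number of members called in each class (Gzmc in NK-like cells 6.77, adjusted p = 2.0e-10 by limma). With 51 wild-type NK-like cells, their number and depth limit every level there, and a share under 5.88% could go unseen.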
